A study of Homo sapiens with 4 samples.

Results

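This report describes 10 keratin genes, KRT5, KRT7, KRT8, KRT10, KRT14, KRT15, KRT17, KRT18, KRT19 and KRT23, in T-47D cells given an artificial microRNA. The members are the probesets whose listed gene symbol is exactly 1 of these genes, 71 probesets in all. After a filter on dim probesets 9 of the 10 genes had a gene value, out of 15719 genes, and KRT17 had none. The genes were selected on a view of their mimic minus control differences in these same arrays. Those differences, with their intervals and calls, are therefore given as a description, without p-values.

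The study used the T-47D cell line, a luminal breast cancer model that carries estrogen and progesterone receptors. The mimic group was transfected with p-27-5p mimic at 200 nM and measured on 2 Affymetrix exon arrays. The control group was transfected with a pre-miR negative control and measured on another 2 arrays. Both groups were grown in DMEM with serum and transfected with TurboFect. The control's dose, the mimic's sequence and the time from transfection to harvest are not stated in the sources used here. Both groups come from 1 cell line, and no label tells if the 2 arrays within a group are from separate cultures. The spread between them may therefore be technical.

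Keratins are the intermediate filament proteins of epithelium. A filament is built from pairs of a type I and a type II keratin, and the pair tells the kind and layer of epithelium. In the breast, luminal cells carry KRT8 with KRT18, together with KRT19 and KRT7, while basal cells carry KRT5 with KRT14, together with KRT15 and KRT17. KRT10, a type I keratin, pairs with KRT1 in the upper layers of the epidermis and is not a standard marker of either breast lineage. KRT23 is a type I keratin found in some simple epithelia and carcinomas.

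The values are log2 summaries of exon-level probesets, each made of a few probes at one place along a gene. Arrays of this type also carry probesets for predicted exons and introns, and the class of a probeset was not used here. A gene's value is the mean log2 value of its probesets whose mean over the 4 arrays reached 4.08, the 25th percentile of all values. Every level is on the log2 scale, and every difference is mimic minus control. The level of 1 gene cannot be set against that of another, since different probes bind with different strength. Over all probesets Pearson's r was 0.985 for the mimic pair, 0.984 for the control pair and 0.966 to 0.973 across groups.

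The label of the cells was checked with markers other than keratins. Of 16 luminal markers, 14 were above 6.85 in both groups, as were 3 of 12 measured basal markers in mimic arrays and 2 in control arrays. That level is the highest among genes of liver and neurons taken as a measure of background, leaving out SERPINA1, which stood at 9.07 in mimic and 9.45 in control arrays and was set aside after its values were seen. The 12 measured background genes had a median level of 5.04 in mimic arrays and 4.88 in control arrays. Averaged over the 10 fibroblast markers, the level was 5.31 and 5.24 on the mimic arrays, against 5.07 and 4.89 on the control arrays. Over the 6 measured leukocyte markers it was 5.89 and 5.75 on the mimic arrays, against 5.80 and 5.70 on the control arrays. Above 6.85 were 1 of the 10 fibroblast markers in mimic arrays and 0 in control arrays, and 1 leukocyte marker in each group. Limma called none of these fibroblast or leukocyte genes, with 3 of the 16 higher and 0 lower at an unadjusted p under 0.05, against 7.65% and 12.8% of all genes. These were the fibroblast genes FAP and LUM, with 0.77 and 0.80 (adjusted p = 0.0916 and 0.127), and CD14, a monocyte receptor, with 0.46 (adjusted p = 0.182). With no filter FAP, LUM and CD14 had 0.33, 0.07 and 0.34 (adjusted p = 0.202, 0.82 and 0.134). FAP, another fibroblast gene and some background genes passed without control replicate 1, and LUM passed without control replicate 2. These fits rest on 1 control array each and called more genes over the whole table than with all 4 arrays. The part of other cell types in the results below was not tested. In RNA from whole cultures, fewer cells of a type and less RNA per cell cannot be told apart.

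KRT10 was the member with the largest difference, and its probesets did not move together. At the gene level it had 8.41 and 8.41 on the mimic arrays, against 6.66 and 6.71 on the control arrays. The groups did not overlap, and the difference was 1.72 (SE 0.117), a 3.30-fold higher value. Of the 11 probesets in this mean, 4 passed the filter through the mimic arrays and had to differ. The difference and its SE carry that selection. With no filter, over all 13 probesets, the difference was 1.59. The mean hides a sharp break between neighbouring probesets, described next.

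KRT10 was read by 13 probesets, numbered here from 1 to 13 in the order of their identifiers. The limits between the stretches below were drawn after the values were seen. Identifier order was not set against the exons of the gene, since a genome of that build was not used here.

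Probesets 1 to 4 were bright in both groups and differed by -0.43 to 0.06. Probeset 2 had 11.32 and 11.49 on the mimic arrays, against 11.59 and 11.69 on the control arrays. Probeset 3 had 9.50 and 9.66 on the mimic arrays, against 9.97 and 10.04 on the control arrays. Probeset 4, the brightest, had 11.80 and 11.79 on the mimic arrays, against 11.87 and 12.09 on the control arrays. On these 3 probesets the mimic arrays were below the control arrays without overlap, by small amounts, as on 23.6% of all named probesets. On probeset 1 the groups overlapped, with a difference of 0.06.

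Probesets 5 to 10 were dim in the control arrays and far higher in the mimic arrays, by 1.76 to 4.52 with a median of 3.29. Probeset 9, which showed the largest difference of all 71, had 8.28 and 8.23 on the mimic arrays, against 3.50 and 3.97 on the control arrays, 22.9-fold higher. Probeset 10 had 7.71 and 8.02 on the mimic arrays, against 3.61 and 3.66 on the control arrays. Probeset 7 had 7.07 and 7.19 on the mimic arrays, against 3.57 and 3.43 on the control arrays. On all 6 probesets both mimic arrays lay above both control arrays, as on 20.6% of all named probesets. Whether these 6 probesets read exons of the KRT10 messenger RNA was not tested, and the gene value includes 5 of them.

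Probeset 5 followed with 7.35 and 7.54 on the mimic arrays, against 4.38 and 4.61 on the control arrays. Probeset 6 had 6.35 and 5.63 on the mimic arrays, against 3.66 and 3.74 on the control arrays. Probeset 8, the smallest difference of the stretch at 1.76, had 4.67 and 5.08 on the mimic arrays, against 3.26 and 2.98 on the control arrays. Across the stretch the control values ran from 2.98 to 4.61, mostly under the filter level of 4.08, so that these fold changes may understate the change. Of the 11 KRT10 probesets that passed the filter, 4 had a control mean under the filter level and passed through the mimic arrays. They had to differ.

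Probesets 11 and 12 stood between the other stretches, with differences of 1.11 and 1.02. Probeset 11 had 7.17 and 7.74 on the mimic arrays, against 6.65 and 6.04 on the control arrays. Probeset 12 had 8.75 and 8.33 on the mimic arrays, against 7.92 and 7.12 on the control arrays. Probeset 13 was near the bottom of the scale in both groups, at 2.73 and 2.77 on the mimic arrays, against 2.77 and 2.92 on the control arrays. In all, 8 of the 13 KRT10 probesets were higher by at least 1, against 1.84% of all 216780 named probesets.

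**Figure D1:**
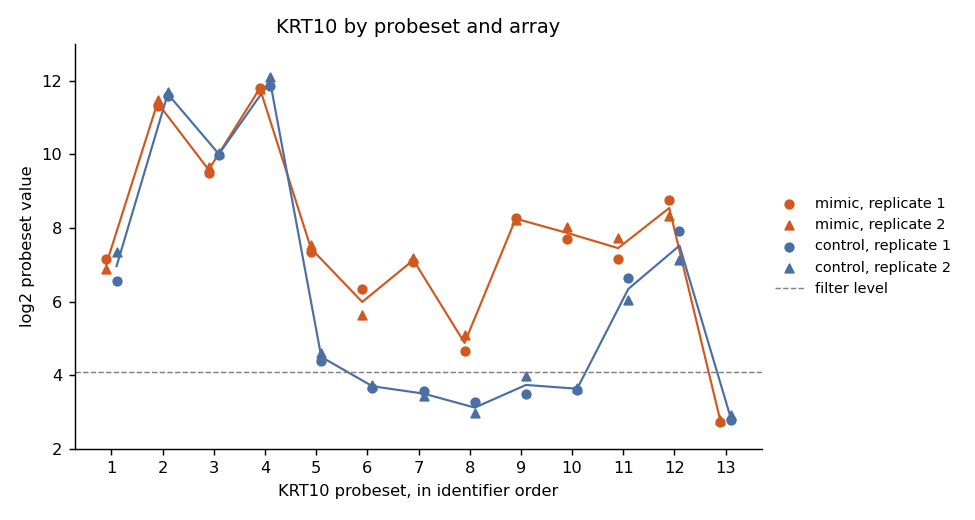
Log2 value of each KRT10 probeset (vertical axis) in identifier order (horizontal axis), with mimic arrays in orange, control arrays in blue, circles for replicate 1, triangles for replicate 2 and lines through the group means. The 2 groups lie together on probesets 1 to 4 and part on probesets 5 to 10, where control values lie between 2.98 and 4.61 and mimic values between 4.67 and 8.28.

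The unevenness of KRT10 can be placed among other genes as a description. The SD of the differences over its 11 probesets above the filter was 1.88, against a median of 0.318 over 11038 genes with at least 5 such probesets. Of those 11 KRT10 probesets, 4 passed through the mimic arrays and had to differ, so this SD and its place carry that selection. A larger SD was found in 5 genes, OASL, IFI27, PLAAT4, LAMP3 and CMPK2, which were named after their values were seen. OASL, IFI27 and CMPK2 are known as interferon-stimulated genes. Among the other members with 5 or more probesets the SD was 0.552 for KRT7, 0.406 for KRT15, 0.396 for KRT23 and 0.242 for KRT5.

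The gene-level value of KRT10 depends on which probesets enter it. With its brightest probeset alone the difference was -0.19. With probesets above the table's median it was 0.22, and 2 of the 6 probesets then kept were higher by at least 1. Leaving out any 1 array gave gene-level differences from 1.70 to 1.74.

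The RefSeq annotation of GRCh38 places 1 other gene over KRT10, the non-coding antisense gene KRT10-AS1, listed on the array as TMEM99. It was named for this overlap, outside the rule for named genes. KRT10-AS1 was lower on all 5 of its probesets. On 4 of them the mimic arrays were below the control arrays without overlap, against 23.6% of all named probesets. The gene value of KRT10-AS1 was 6.94 and 7.21 on the mimic arrays, against 7.69 and 8.08 on the control arrays. The difference was -0.81 (SE 0.186), with a limma adjusted p of 0.101, so it did not pass the threshold. Whether labelled antisense RNA adds to the KRT10 probesets was not tested.

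The genes whose 4-array pattern was most like the gene value of KRT10 were APOBEC3F, a cytidine deaminase that restricts retroviruses, ZC3HAV1, an antiviral zinc finger protein, and TAP2, a subunit of the transporter that loads peptides for MHC class I. They were picked for this likeness, which fixes their difference near that of KRT10, so their values are a description without p-values. The root mean square distance between centred log2 profiles over the 4 arrays was 0.041, 0.045 and 0.045 in that order. APOBEC3F had 7.97 and 7.95 on the mimic arrays, against 6.28 and 6.34 on the control arrays, a difference of 1.64. ZC3HAV1 had a difference of 1.64 and TAP2 one of 1.67. When each gene was read by its brightest probeset only, the difference was 0.03 for APOBEC3F, 1.42 for ZC3HAV1 and 1.44 for TAP2. The likeness rests on the averaged KRT10 value, not on any of its stretches.

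The sequence just before the start of KRT10 is shown because KRT10 is the member with the large difference. It is from RefSeq, build GRCh38.p14, chr17:40822615-40822864, minus strand, and gives the 250 bases upstream of the annotated start. Of the 10 members, 3 matched an entry of the promoter table. The capitals mark every match to the motifs searched.
KRT10: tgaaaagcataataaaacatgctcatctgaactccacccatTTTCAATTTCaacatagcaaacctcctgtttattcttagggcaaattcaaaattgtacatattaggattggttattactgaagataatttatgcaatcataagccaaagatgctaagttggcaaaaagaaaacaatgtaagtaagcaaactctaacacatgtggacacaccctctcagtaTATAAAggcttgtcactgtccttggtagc

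The motifs were searched on both strands, with overlaps allowed, in the 250 bases before the start of each of 35116 annotated promoters. The TATA box TATAAA was found once before KRT10, on the gene's strand from 29 to 24 bases before the start, and is held by 10.7% of all promoters. The core of the interferon-stimulated response element, 2 copies of GAAA with 2 bases between them, was found once on the opposite strand, from 209 to 200 bases before the start, and is held by 3.02% of all promoters. The gamma-activated site TTCNNNGAA, the AP-1 site TGANTCA and the GC box GGGCGG had no match there, and are held by 6.57%, 6.57% and 42.6% of promoters. A match describes letters in this window, and binding of any factor was not measured.

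Among the basal keratins, KRT15 was lower and the others were near the background level. KRT15, a type I keratin of basal and progenitor cells, had 5.63 and 5.61 on the mimic arrays, against 6.30 and 6.39 on the control arrays. The groups did not overlap, and the difference was -0.72 (SE 0.120), with a 95% confidence interval from -1.02 to -0.42. Its levels lay at or under the upper range of the background genes in both groups.

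KRT15 was lower on most of its probesets. Of its 12 probesets, 10 had a difference below 0, and on 9 the mimic arrays were below the control arrays without overlap. The same held for 23.6% of all named probesets. The largest difference, -1.60, was on probeset 4 in identifier order, at 3.59 and 3.35 on the mimic arrays, against 5.12 and 5.02 on the control arrays. Its mean was under the filter level in the mimic arrays, so it entered the gene value through the control arrays and had to be lower. The brightest, probeset 11, had 7.73 and 6.70 on the mimic arrays, against 7.65 and 8.40 on the control arrays, so the groups overlapped at a difference of -0.81. Probeset 7 had a difference of 0.06, and probeset 1, under the filter level, had 0.55.

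KRT5, the type II partner of KRT14, had 6.08 and 5.98 on the mimic arrays, against 6.03 and 5.75 on the control arrays. The groups overlapped and the difference was 0.14 (SE 0.148), with an interval from -0.23 to 0.51. Of its 13 probesets, 7 passed the filter, and on 4 of the 13 both mimic arrays lay above both control arrays, against 20.6% of all named probesets. One of them, probeset 10, had 6.88 and 6.74 on the mimic arrays, against 6.32 and 6.18 on the control arrays, the largest KRT5 difference at 0.56.

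KRT14 was read by 2 probesets, of which 1 passed the filter. It had 6.53 and 6.77 on the mimic arrays, against 6.53 and 6.27 on the control arrays, a difference of 0.26 (SE 0.160) with an interval from -0.15 to 0.66. The lowest mimic value and the highest control value differed by less than 0.01. The KRT14 probeset under the filter level had a difference of -0.17, and with no filter the gene-level difference was 0.04. KRT17, a basal keratin that is also made in stressed epidermis, had 3 probesets, all under the filter level. Their mean was 3.41 and 3.55 on the mimic arrays, against 3.13 and 2.91 on the control arrays, a difference of 0.46. On all 3 the mimic arrays lay above the control arrays, against 20.6% of all named probesets, and the values lay at the bottom of the scale. KRT14 and KRT17 have close relatives and pseudogenes, and how far their probes bind those was not tested.

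Among the luminal keratins, KRT19, KRT8 and KRT7 were lower by less than 0.5 and KRT18 was nearly level. KRT19, the short type I keratin of luminal cells, had 9.05 and 9.15 on the mimic arrays, against 9.47 and 9.70 on the control arrays. The groups did not overlap, and the difference was -0.48 (SE 0.140), with an interval from -0.84 to -0.13. Its 2 probesets differed by -0.53 and -0.43. The brighter one had 11.24 and 11.39 on the mimic arrays, against 11.78 and 11.91 on the control arrays.

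A further 3 probesets are listed for both KRT19 and JUP, which encodes plakoglobin, and were not counted as members. They had differences of -0.20, -0.17 and 0.10, smaller than those of the probesets listed for KRT19 alone.

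KRT8, the type II keratin of simple epithelium, was read by 1 probeset. It had 12.15 and 12.13 on the mimic arrays, against 12.29 and 12.50 on the control arrays. The groups did not overlap, and the difference of -0.26 (SE 0.133) had an interval from -0.60 to 0.08. KRT18, its type I partner, was read by 2 probesets of very different brightness. The bright one had 13.30 and 13.26 on the mimic arrays, against 13.27 and 13.22 on the control arrays, a difference of 0.03. The dim one had 4.50 and 5.09 on the mimic arrays, against 4.74 and 4.65 on the control arrays. The groups overlapped on both probesets, and the gene-level difference was 0.07 (SE 0.146), with an interval from -0.30 to 0.43. It was 0.20 without mimic replicate 1 and -0.07 without mimic replicate 2. Both genes have many processed pseudogenes, and how far the probes bind their transcripts was not tested. The gene values of KRT8 and KRT18 rest on 3 probesets together.

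KRT7, a type II keratin of luminal and other simple epithelium, had 8.05 and 8.10 on the mimic arrays, against 8.25 and 8.27 on the control arrays. The groups did not overlap, at a difference of -0.19 (SE 0.118) and an interval from -0.48 to 0.11. The largest difference was on probeset 1, which had 6.03 and 5.55 on the mimic arrays, against 7.28 and 7.07 on the control arrays, at -1.38. Probeset 3 had 7.66 and 7.98 on the mimic arrays, against 8.18 and 8.53 on the control arrays, a difference of -0.54. On the remaining 8 probesets the groups overlapped, up to a difference of 0.67 on probeset 10. The mimic arrays were thus below without overlap on 2 of the 10 probesets, against 23.6% of all named probesets. With the brightest probeset alone KRT7 had 0.03.

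**Figure D2:**
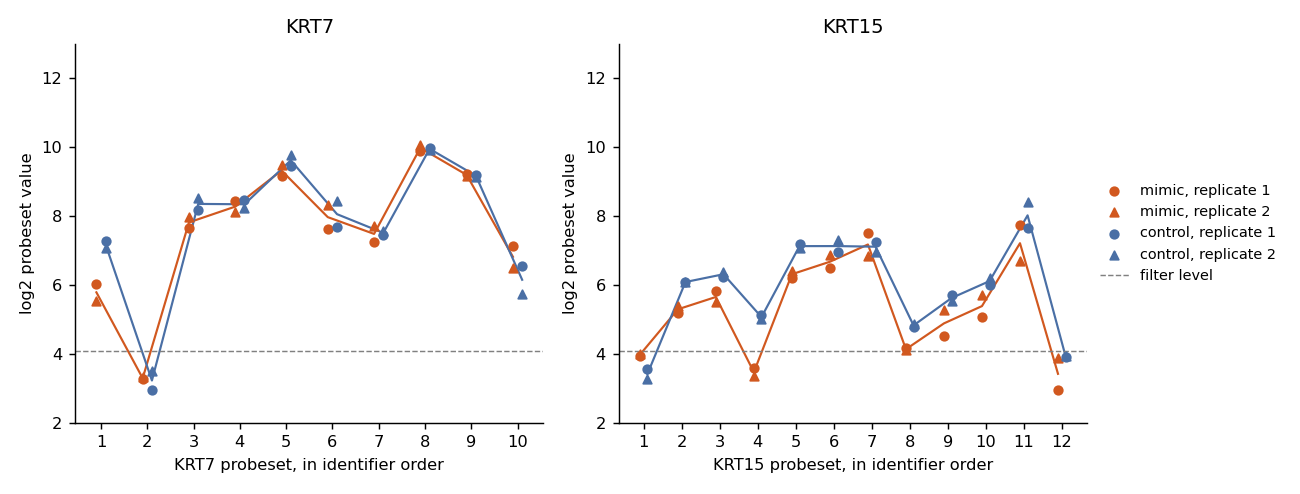
Log2 values of the probesets of KRT7 (left) and KRT15 (right) in identifier order, with mimic arrays in orange, control arrays in blue and lines through the group means. The groups of KRT7 part on probesets 1 and 3, while those of KRT15 stay apart on 9 of 12 probesets with the mimic arrays lower, and on probeset 1, under the filter level, with the mimic arrays higher.

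KRT23 was nearly level at the gene value. It had 8.88 and 9.18 on the mimic arrays, against 8.80 and 9.13 on the control arrays, a difference of 0.07 (SE 0.179) with an interval from -0.39 to 0.52. The arrays of replicate 2 were higher than those of replicate 1 in both groups by more than this. Of its 13 probesets, 10 had a difference above 0, and on 5 both mimic arrays lay above both control arrays, against 20.6% of all named probesets. The largest was 0.49 on probeset 4, where the groups overlapped, with 10.76 and 11.38 on the mimic arrays, against 10.36 and 10.81 on the control arrays. Probeset 11, at -0.53, had a mimic mean under the filter level and passed through the control arrays. Probeset 12, a dim one, had -0.98, with 4.81 and 4.94 on the mimic arrays, against 5.30 and 6.40 on the control arrays. Without control replicate 1 the gene-level difference was -0.10, and without control replicate 2 it was 0.23.

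**Figure D3:**
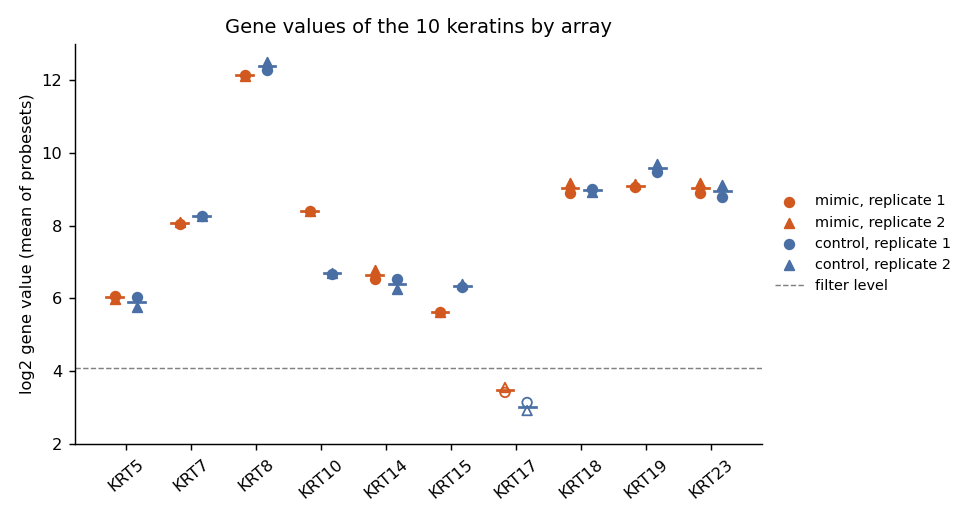
Log2 gene values (mean of the probesets above the filter level) of the 10 keratins by array, with mimic arrays in orange to the left of control arrays in blue and bars at the group means. KRT17, drawn hollow, is the mean of 3 probesets under the filter level, and heights are not comparable between genes. KRT10 stands apart at 8.41 in mimic and 6.68 in control arrays.

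Over the members as a set, limma's fit across all genes passed 1 of 9, KRT10, at a Benjamini-Hochberg adjusted p under 0.05, against 2.31% of the 15719 genes, of which 1.52% were higher and 0.789% lower. Both mimic arrays lay above both control arrays for 2 members, KRT10 and KRT14, against 20.5% of all genes. They lay below for 4, KRT7, KRT8, KRT15 and KRT19, against 29.5% of all genes. The members were chosen with this comparison known, and nothing is read from these counts. The median difference over the 9 members was 0.07, against 0.00 over all genes. Without control replicate 1, in a fit on 1 control array, KRT15 had -0.76. With all 4 arrays kept, KRT15 passed with quantile normalization, with no filter and with the intensity trend, and KRT19 with the intensity trend. These calls, like the intervals given for members, rest on the values the members were chosen on. They describe the members and do not test them. The call of KRT10 also carries the selection of its 4 probesets that passed the filter through the mimic arrays. KRT10 did not pass with its brightest probeset or with probesets above the table's median. By lineage, the 4 luminal keratins ran from -0.48 to 0.07 and the 3 basal keratins with a gene value from -0.72 to 0.26.

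**Figure D4:**
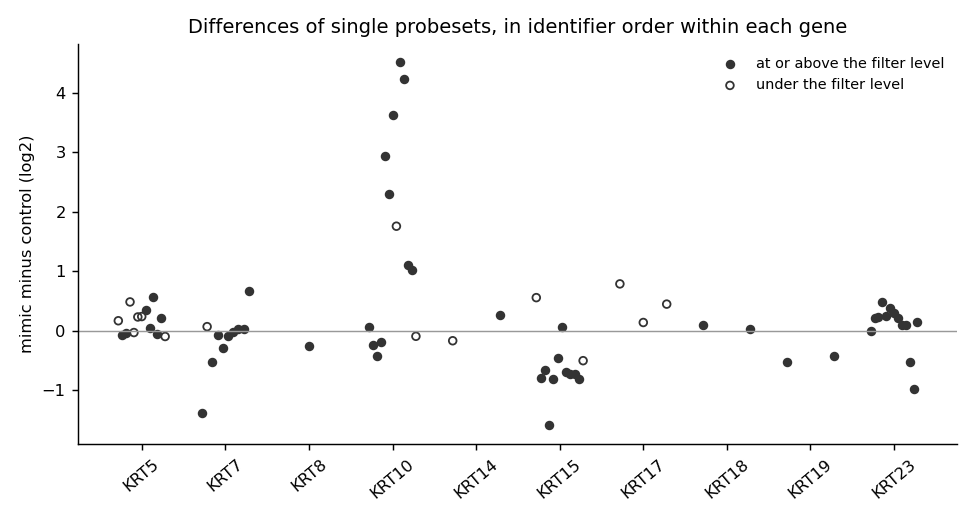
Mimic minus control difference on the log2 scale of each of the 71 probesets, by gene, in identifier order within a gene. Filled points are at or above the filter level and hollow points under it. The 7 points at and above 1.02 that are filled belong to KRT10, the hollow one at 1.76 as well, and 10 of the 12 KRT15 points lie below 0.

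No other keratin passed the test. Limma called 0 of the 43 measured keratins that are not members. At an unadjusted p under 0.05, 1 was higher and 1 lower, and their median difference was 0.10. The 2 were KRT33A and KRT13. KRT33A, a hair keratin with 1 probeset above the filter, had 0.98 (adjusted p = 0.115), but 0.32 with no filter (adjusted p = 0.202). KRT13, a type I keratin of internal stratified epithelium, had -0.40 (adjusted p = 0.166). Of these 43 genes, 4 were above 6.85 in mimic arrays and 3 in control arrays, so most gave little signal over background. Without control replicate 1, KRT33A had 1.33 and passed with some others of them. That fit rests on 1 control array and called more genes over the whole table. With the intensity trend KRT33A alone passed (adjusted p = 0.0383). KRT1, the usual partner of KRT10 and chosen after its value was seen, had 5.59 in mimic and 5.32 in control arrays, a difference of 0.27 (adjusted p = 0.506).

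Among the genes whose proteins anchor keratin filaments at cell contacts none passed the test as fitted, and CD151 passed under other settings. Of 17 measured genes of desmosomes and plakins, limma called 0, with a median of -0.09 and with 2 higher and 1 lower at an unadjusted p under 0.05. DSP, desmoplakin, which ties keratins to the desmosome, had 0.30 (adjusted p = 0.239), and PERP, a desmosomal membrane protein, had -0.34 (adjusted p = 0.21). Of 7 measured genes of hemidesmosomes, limma called 0, with 1 higher and 1 lower at an unadjusted p under 0.05. CD151, a tetraspanin that binds laminin-binding integrins, had -0.52 (adjusted p = 0.101, but 0.0279 with no filter and 0.0111 with the intensity trend) and LAMB3, a laminin chain of the basement membrane, had 0.54 (adjusted p = 0.125).

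Of 14 measured intermediate filament genes other than keratins, limma called 0, with 0 higher and 3 lower at an unadjusted p under 0.05. The lens filament gene BFSP2 had -0.50 and the lamin gene LMNB1 -0.50 (adjusted p = 0.149 and 0.153). LMNB1 passed with the intensity trend (adjusted p = 0.0332). With no filter 1 gene other than BFSP2 and LMNB1 passed, and with the stricter filter 1. A gene other than these also passed without control replicate 1, in a fit on 1 control array that called more genes over the whole table. VIM, the filament of mesenchymal cells and chosen after its value was seen, had 5.94 in mimic and 5.82 in control arrays. Of 12 measured genes of the cornified envelope, where KRT10 is at home in skin, 1 fell, against 0.789% of all genes. The other 11 did not pass, and the median of the list was 0.22. CNFN, cornifelin, fell by 1.17 on the log2 scale (adjusted p = 0.0244), with 5.03 and 5.30 on the mimic arrays, against 6.32 and 6.36 on the control arrays. CNFN missed the threshold without mimic replicate 1 (adjusted p = 0.116), with the median of probesets (0.0671) and with the brightest probeset (0.205). Without control replicate 1 some other genes of the cornified list passed too, in a fit on 1 control array that called more genes over the whole table. CDSN, corneodesmosin, and the skin protease KLK7 had 0.34 and 0.35 and did not pass (adjusted p = 0.259 and 0.281).

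Among markers of the 2 breast lineages, 1 of 16 luminal genes fell and 1 of 12 basal genes rose. Of all genes, 0.789% were lower and 1.52% higher at this threshold, and nothing is read from 1 gene in each list. TFF3, a secreted trefoil peptide induced by estrogen, had 7.49 and 7.67 on the mimic arrays, against 8.46 and 8.69 on the control arrays. It fell by 0.99 on the log2 scale (adjusted p = 0.0417) but did not pass without mimic replicate 1 (adjusted p = 0.201) or 2 (0.112), nor with the median of probesets (0.104) or the brightest probeset (0.143). The hormone receptor genes PGR and ESR1 had -0.60 and -0.42 (adjusted p = 0.135 and 0.139). PGR passed without control replicate 1, at -0.73 (adjusted p = 0.0332), with no filter (0.0352) and with the intensity trend (0.0215). ESR1 passed with the intensity trend (0.0293), and with its brightest probeset had 0.026. The luminal median was -0.13.

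TRIM29, a regulator of keratinocytes also known as ATDC, had 7.45 and 7.53 on the mimic arrays, against 5.62 and 5.72 on the control arrays. It rose by 1.81 (SE 0.123, adjusted p = 0.00277) and passed under each of the 15 alternative settings. TP63, the master regulator of basal epithelium, had 5.38 and 5.36 on the mimic arrays, against 4.73 and 4.46 on the control arrays, a difference of 0.78 (adjusted p = 0.0671, but 0.0438 with quantile normalization and 0.0203 with no filter). Over the alternatives its adjusted p ran from 0.00757 without control replicate 1 to 0.307 without mimic replicate 1. The CDH3 gene of P-cadherin had 0.25 (adjusted p = 0.388). The basal median was 0.09. Over all lists, 3 genes passed, beside 2.31% of all genes.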

How the data were processed

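Exon array values of 4 samples were analysed. The deposited log2 values are probeset summaries. Partek, RMA and hg18 are named in the submitters' processing notes, with no version or order of steps. The table holds 232479 probesets, of which 216780 carry 1 gene symbol. Gene names follow the platform annotation, and 25769 were brought up to date with RefSeq synonyms. A gene value is the mean of its probesets with 1 symbol and a mean of at least 4.08. The 15719 gene values were tested, two-sided, by limma 3.58.1 (lmFit, eBayes) under R 4.3.3. Calls are at a Benjamini-Hochberg adjusted p under 0.05. Residual degrees of freedom were 2, or 5.29 after adding the prior's. An exact permutation test of 2 against 2 arrays cannot go below 0.333 and was not used. On simulated data of 15719 genes the fit recovered 48 of 50 genes changed by 1 log2 unit, 3 of 50 changed by 0.5, and made 30 false calls. The members and lists were chosen with earlier results of these data known. All members are named. From each list, up to 4 genes past the threshold and 2 others with the smallest p are named, and for KRT10 the 3 genes with the nearest profile. Plots used matplotlib 3.10.9. Depth is not defined for arrays, and the 2 arrays per group limit the precision. Other settings tried were the replicate block, quantile normalization, equal medians, 3 other filters, 2 other probeset summaries, 2 other variance priors, listed symbols and leaving out each array. Taking the filter percentile over all values, in place of over probeset means, was settled after results were seen.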

Additional observations from a re-analysis of the deposited data

How the results depend on the processing

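With 2 arrays per group, counts of called genes moved with the settings. The main fit called 363 genes. The count was 535 with quantile normalization, 1433 with no filter, 364 with the filter percentile taken over probeset means (added after seeing the data), 1594 with an intensity trend, 247 with the median of probesets, 122 with the brightest probeset and 172 to 1691 with 1 array left out. Without mimic replicate 1 or 2 it was 172 or 186, and without control replicate 1 or 2 it was 1691 or 690. The replicate block gave 498 calls and 1 called member, and changed the call of no named gene. The deviations of same-numbered arrays from their group means correlated with r = 0.281 over probesets and 0.435 over genes. No label says that the numbers pair the samples. Of the members, 1 was called in the main fit, 2 with quantile normalization, 2 with no filter, 3 with an intensity trend, 0 with the brightest probeset, 0 with the stricter filter and 1 to 2 with 1 array left out. KRT10 probesets at least 1 higher numbered 7 of those above the filter, 8 with no filter, 2 with the stricter filter and 5 to 7 with 1 array left out. With the stricter filter the median KRT10 probeset difference was -0.065, against 1.11 in the main setting. With the brightest probeset KRT10 had -0.19, ESR1 0.026 and SYT1, a background gene, 0.011. The cause of these shifts was not tested, except that stricter filters and single probesets leave out KRT10 probesets that are dim in control arrays. Signal near background limits KRT5, KRT14, KRT15 and KRT17.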
